A study of Rattus norvegicus with 11 samples.

Results

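The CREB and ATF transcription factors were examined in medial prefrontal cortex through the 7 genes Creb1, Crem, Crebl2, Atf1, Atf2, Atf3 and Atf4. Every non-control array probe carrying one of these gene names was taken, whatever its signal, which gave 10 probes out of 41012. Creb1, Crem and Atf1 each had 2 probes and the other genes had 1. All 10 probes were detected on every array and were therefore among the 25555 probes tested.

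The groups were 6 rats that had self-administered heroin and 5 yoked rats that had received saline whenever a matched rat took heroin. All were male, 4 months old, and had spent 14 days in abstinence followed by an extinction session without drug. Both groups went through the same abstinence and session, but the study reported more goal-directed responding by the heroin rats in that session. Heroin history and behaviour in the session therefore cannot be told apart here. RNA from the cortex medial to the forceps minor was amplified, labelled with Cy3 and hybridised to a 1-colour Agilent rat array, 1 array per rat, and the comparison asks which transcripts differed between rats with and without a history of heroin intake. A signal is given below in array medians, that is, as a multiple of the median signal of the same array, and since each probe binds with its own strength, signals are compared between rats within a probe and not between probes.

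CREB and ATF proteins are basic leucine zipper factors that bind as dimers to the cAMP response element (CRE). CREB, the product of Creb1, is held at its target genes and is switched on by phosphorylation after synaptic activity or cAMP, so its activity can change without any change in its own mRNA, and it has long been studied in memory and in the response of the brain to drugs of abuse. Crem gives both activators and the short inducible repressor ICER, whereas Atf3 and Atf4 are best known from responses to injury and to stress on translation.

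The sequences of the probes for Creb1 and Crem are shown because each gene had 2 probes. That of Crebl2 is shown because it alone passed the thresholds given below. The array files gave positions on the rat build rn3. Creb1 probe 1 was placed at chr9:63381602-63381661 and Creb1 probe 2 at chr9:63381610-63381669. Capitals mark the 52 bases that they share, so these are overlapping readings of one stretch of the transcript and not independent ones.
Creb1 probe 1: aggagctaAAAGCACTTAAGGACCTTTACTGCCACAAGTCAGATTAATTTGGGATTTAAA
Creb1 probe 2: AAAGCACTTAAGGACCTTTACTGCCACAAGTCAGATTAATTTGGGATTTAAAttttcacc
Crem probe 1 at chr17:62846921-62846980 and Crem probe 2 at chr17:62841513-62841572 lie apart and share no such stretch. The array design assigned the first to transcript variant 1 and the second to transcript variant 2.
Crem probe 1: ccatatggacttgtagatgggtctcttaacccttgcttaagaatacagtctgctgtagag
Crem probe 2: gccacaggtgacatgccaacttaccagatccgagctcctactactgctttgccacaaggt
The Crebl2 probe was placed at chr4:172014028-172014087.
Crebl2: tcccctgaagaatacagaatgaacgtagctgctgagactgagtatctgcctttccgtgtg
The remaining probes were placed at chr7:139055902-139071799 (Atf1 probe 1, a 60-base probe placed over a span of 15898 bases), chr7:139089927-139089986 (Atf1 probe 2), chr3:56329042-56329101 (Atf2), chr13:107380795-107380853 (Atf3) and chr7:118573070-118573129 (Atf4). Which exon or untranslated region each probe reads was not analysed here.

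Of the 10 probes, 1 passed both thresholds used by the study, 1.4-fold in size and 0.02 for the unadjusted p, and this was Crebl2, which was higher in the heroin rats. None passed in the other direction. Of all tested probes, 2.72% passed both thresholds in either direction, 1.79% higher and 0.927% lower in heroin rats. The split by direction depended on the scaling: 457 of 694 calls were higher in heroin rats here, 218 of 457 after quantile normalization, 33 of 779 at the 75th percentile and 42 of 675 at the 50th percentile of the detected probes. No probe of any gene on the array had a limma adjusted p under 0.05, the smallest being 0.263, although 4723 probes had an unadjusted p under 0.05. The heroin mean was the higher one for 7 of the 10 probes, against 78.7% of all tested probes, so the direction alone does not set the family apart. After quantile normalization it was higher for 6 of 10, against 53.2% of all probes. On the log2 scale the 10 probes had a median change of 0.16 (0.08 with quantile normalization), where the median of all tested probes was 0.18 (0.01).

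**Figure D1:**
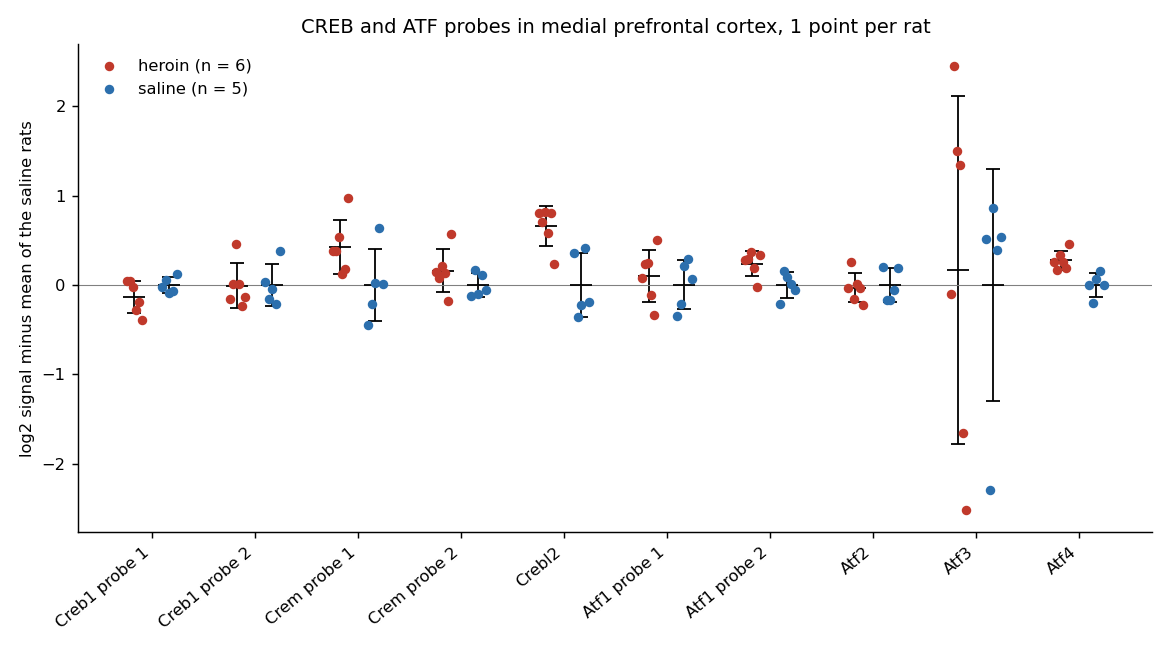
Log2 signal of each CREB and ATF probe in each rat, minus the mean of the 5 saline rats for that probe (vertical axis), with heroin rats in red and saline rats in blue. Long bars are group means and whiskers are SDs on the log2 scale; Crebl2 and Atf4 sit higher in heroin rats, and Atf3 spreads over a 31.2-fold range across rats of both groups.

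Arrays differed in ways that touch every value here. Median signals ran from 42.7 to 78.3 in heroin rats and from 58.0 to 83.2 in saline rats before scaling. The file headers showed that the same-numbered heroin and saline rats 2 to 6 shared a scan, while all heroin samples lay at array position 4 and all saline samples at array position 3, so position and group cannot be told apart. Markers of neurons (Slc17a7, Camk2a, Snap25 and Syt1) were detected by 7 of 7 probes on every array, with a summed signal of 301 to 484 array medians in heroin rats and 260 to 406 in saline rats. The Snap25 probe dominated this sum, with means of 281 in heroin rats and 225 in saline rats, whereas Slc17a7 read 2.70 and 2.10. Drd1a, Drd2 and the other striatal markers summed to 8.81 to 12.4 array medians in heroin rats and 8.94 to 24.9 in saline rats, and no probe of any neuronal, glial, vascular, blood or striatal marker list passed both thresholds. In such bulk tissue, fewer cells of a type and less RNA per cell cannot be told apart.

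Creb1, the founding member of the family, passed the thresholds with neither of its probes. Probe 1, printed in 10 spots per array, ranged from 0.531 to 0.714 array medians in heroin rats with a median of 0.648, and read 0.681, 0.724, 0.652, 0.665 and 0.756 in saline rats 2 to 6. The groups overlapped, with 2 saline rats above every heroin rat and 3 of 6 heroin rats above the saline median. The means were 0.638 ± 0.078 (SD, n = 6) and 0.696 ± 0.043 (SD, n = 5), a log2 difference of −0.13 with an SE of 0.12 (limma adjusted p = 0.492, exact permutation test p = 0.171). The size depended on the scaling, and was −0.35 with an SE of 0.13 at the 75th percentile (limma adjusted p = 0.451) and −0.32 with an SE of 0.13 at the 50th percentile of the detected probes (limma adjusted p = 0.497). In both of these scalings the unadjusted limma p was under 0.05, at 0.0210 and 0.0272. After quantile normalization the difference was −0.05 with an SE of 0.10 (exact permutation test, p = 0.567), and with normexp background correction it was −0.07. Because this probe was spotted 10 times, the error between spots of an array can be seen. Within an array the spots had a median SD of 0.21 on the log2 scale, which leaves an SE of 0.07 for its mean. Rats of one group differed with an SD of 0.15. With 1 array per rat, this SD also holds any error of amplification, labelling and hybridisation, which the spots do not show.

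Creb1 probe 2 gave 0.408 to 0.662 array medians in heroin rats with a median of 0.461, and 0.492, 0.432, 0.465, 0.415 and 0.623 in saline rats 2 to 6. The groups overlapped throughout, with a difference of −0.01 and an SE of 0.15 (exact permutation test, p = 0.942). Its sign turned to 0.11 after quantile normalization. Both Creb1 probes lay close to the detection limit, at means of 2.61 and 1.91 times the lowest signal called above background. The changes read by the overlapping probes differed by −0.12 on the log2 scale, less than the spread between rats (exact permutation test, two-sided, p = 0.379, also 0.379 after Benjamini-Hochberg adjustment over the 3 genes with a pair of probes).

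Crem, which encodes activators as well as the ICER repressor, was read by 2 probes that the array design assigned to 2 transcript variants. Whether either probe reads only its assigned variant, and whether it also reads ICER, was not analysed. Probe 1 ranged from 4.73 to 8.47 array medians in heroin rats with a median of 5.62, and read 3.18, 3.74, 4.39, 6.71 and 4.35 in saline rats 2 to 6. In the saline group, 4 of 5 rats lay below the lowest heroin rat, and saline rat 5 lay above 5 of the 6 heroin rats. The means were 5.93 ± 1.36 (SD, n = 6) and 4.47 ± 1.34 (SD, n = 5), a log2 difference of 0.43 with an SE of 0.19 (limma, p = 0.0437, adjusted p = 0.268), which missed both thresholds, and the exact permutation test gave p = 0.0736. An unadjusted limma p under 0.05 was reached by 18.5% of all tested probes and by 3 of the 10 CREB and ATF probes, namely Crem probe 1, Crebl2 and Atf4. After quantile normalization these shares were 7.71% and 2 of 10, namely Crebl2 and Atf1 probe 2.

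The result for Crem probe 1 depended on single rats in both directions. Its difference of 0.43 with all rats fell to 0.31 without saline rat 2 and to 0.32 without heroin rat 6. Without saline rat 5 the difference was 0.58 (limma adjusted p = 0.0620) and the probe passed both thresholds, while 2352 probes over the whole array did so in place of 694. Leaving out any other single rat did not bring the probe past both thresholds. With all rats, after quantile normalization, the difference was 0.22 (exact permutation test, p = 0.238), or 0.20 above the median of all probes.

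Crem probe 2 ranged from 2.47 to 4.16 array medians in heroin rats with a median of 3.08, and read 2.57, 3.15, 2.60, 3.03 and 2.69 in saline rats 2 to 6. The heroin rats spanned the whole saline range. The difference was 0.16 with an SE of 0.14 (exact permutation test, p = 0.242) and turned to −0.02 after quantile normalization. Although only the first probe reached an unadjusted p under 0.05, the 2 Crem changes were not shown to differ: the difference between them was 0.27 (exact permutation test, two-sided, p = 0.145, 0.379 after Benjamini-Hochberg adjustment over 3 genes).

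CREB binds the palindrome TGACGTCA, and this motif was looked up in the RefSeq promoters of GRCr8, each 250 bases before to 50 bases after a gene start. Since the motif is its own reverse complement, a match holds for both strands. It was present in 612 of 33469 promoter windows (1.83%). The members had 8 windows from 5 genes in that table, and the motif was found in 2 of them, both from Crem. Its matches are shown with their surrounding bases and the motif in capitals, because they are the only full CREs among the members' windows. They lie on the plus strand at chr17:58984730-58984759, chr17:58985444-58985473 and chr17:58985518-58985539 of GRCr8, and begin at −56, −35 and 40 relative to the gene start of their window.
Crem at −56: tgataggctggTGACGTCActgtgatgtca
Crem at −35: gttcaaagggcTGACGTCAttacatttcct
Crem at 40: gagctgcacatTGACGTCAgct
The shorter TGACG, or CGTCA on the other strand, which is also contained in each full match, was present in 21.2% of all windows and in 5 of the 8 windows of the members. A match is a string of letters and was not tested for binding.

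Crebl2, a small CREB-like protein that shares the basic leucine zipper fold, had the largest log2 change and the smallest limma p of the 10 probes. Its signal ranged from 3.93 to 5.86 array medians in heroin rats with a median of 5.62, and read 4.28, 2.60, 2.85, 4.42 and 2.92 in saline rats 2 to 6. Of the 6 heroin rats, 5 lay above the highest saline rat, and heroin rat 6 lay among the saline values. The means were 5.31 ± 0.75 (SD, n = 6) and 3.41 ± 0.87 (SD, n = 5).

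That difference in Crebl2 was 0.66 on the log2 scale, or 1.58-fold, with an SE of 0.17 (limma, p = 0.00153, adjusted p = 0.263), and the exact permutation test over 462 divisions of the rats gave p = 0.00866. Among all changes it ranked at percentile 99.6. The heroin rat was higher in 5 of 5 scans, by 0.34 to 1.18, and with the scan as a block the difference was 0.63 (limma adjusted p = 0.454), still past both thresholds, which 3.15% of probes passed in that fit. After quantile normalization it was 0.46, equal to 0.44 above the median of all probes (limma p = 0.0188, exact permutation test p = 0.0455), and it fell short of 1.4-fold. Under that normalization the heroin rat was higher in 4 of 5 scans. The direction of the group difference held in all 26 alternatives, and the call was lost in 3 of them, which all changed the scaling. The same probe is on the list of changed genes that the study drew from these arrays, so its call here is not independent evidence.

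Genes whose pattern over the 11 arrays came nearest to that of Crebl2 were Slit1, a secreted axon guidance protein, Zcchc12, a zinc finger protein, and Siat7E, a sialyltransferase. Once each probe was centred on its own mean, they differed from Crebl2 by a root mean square of 0.15, 0.16 and 0.17 on the log2 scale, where the median tested probe differed by 0.44 and Crebl2 itself varied around its mean by 0.42. Slit1 was higher in heroin rats by 0.49, Zcchc12 by 0.54 and Siat7E by 0.50. These genes were picked for their likeness and carry no test.

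**Figure D2:**
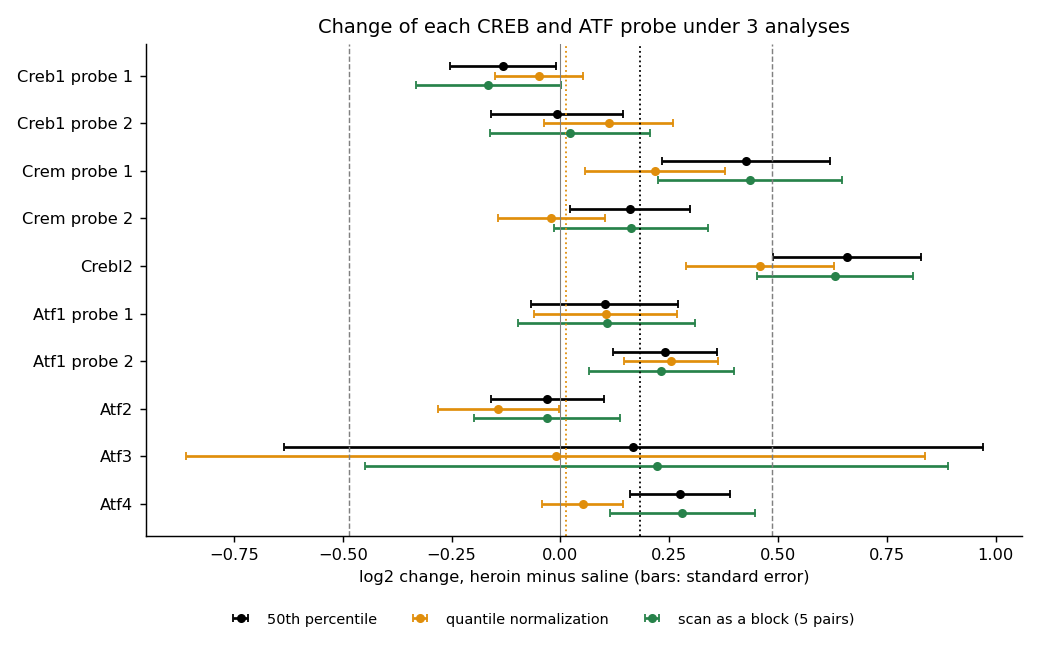
Log2 change, heroin minus saline, of each CREB and ATF probe with its standard error (horizontal axis) after scaling to the 50th percentile (black), after quantile normalization (orange) and with the scan as a block (green). Dotted lines mark the median change of all tested probes for the first and second analysis (0.18 and 0.01) and dashed lines the 1.4-fold threshold; Crebl2 alone lies beyond the dashed line, and falls short of it after quantile normalization.

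Atf1, the closest relative of CREB and its partner in dimers, was read by 2 probes that lie far apart in the gene. Probe 1 ranged from 0.824 to 1.47 array medians in heroin rats with a median of 1.16, and read 0.816, 0.893, 1.20, 1.27 and 1.09 in saline rats 2 to 6. These ranges overlapped almost fully, and the difference of 0.10 had an SE of 0.17 (exact permutation test, p = 0.548). It turned to −0.12 when arrays were scaled to the 75th percentile. Probe 2 ranged from 0.869 to 1.14 array medians in heroin rats with a median of 1.08, and read 0.764, 0.983, 0.942, 0.890 and 0.851 in saline rats 2 to 6.

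By Atf1 probe 2, therefore, 5 of 6 heroin rats lay above the highest saline rat, and heroin rat 5 fell among the saline rats. The difference was 0.24 with an SE of 0.12 (limma, p = 0.0645, adjusted p = 0.278), the exact permutation test gave p = 0.0216, and after quantile normalization it was 0.25 (exact permutation test, p = 0.0260). It was 0.022 at the 75th percentile (limma adjusted p = 0.979), 0.049 at the 50th percentile of the detected probes and 0.090 with normexp. With the scan as a block the value was 0.23 and the unadjusted limma p went from 0.0645 to 0.185. It did not reach 1.4-fold in any analysis. The changes of the 2 Atf1 probes differed by −0.14, less than the spread between rats (exact permutation test, two-sided, p = 0.320, 0.379 after Benjamini-Hochberg adjustment over 3 genes).

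Atf2, a factor activated by stress kinases that pairs with Jun proteins, ranged from 1.53 to 2.12 array medians in heroin rats with a median of 1.74, and read 2.04, 1.58, 1.58, 1.71 and 2.04 in saline rats 2 to 6. The saline rats fell within the span of the heroin rats. The difference was −0.03 with an SE of 0.13 (exact permutation test, p = 0.799). It was −0.14 after quantile normalization, −0.25 at the 75th percentile and −0.22 at the 50th percentile of the detected probes, and passed the thresholds in none of them.

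Atf3, an injury-induced factor that mostly represses its targets, varied far more between rats than between groups. Heroin rats 1 to 6 read 4.16, 24.3, 12.6, 11.3, 1.42 and 0.781 array medians, and saline rats 2 to 6 read 6.36, 0.910, 8.12, 5.84 and 6.48. The heroin group held both the highest and the lowest value, which were 31.2-fold apart, and saline rat 3 stood far below the other saline rats. The log2 difference of 0.17 had an SE of 0.80 (exact permutation test, p = 0.874) and turned to −0.01 after quantile normalization, while with array weights it was 1.09 with an SE of 0.73. Within a scan the heroin rat ranged from 3.05 log2 units below to 3.79 above its saline partner, and was higher in 3 of 5 scans.

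The within-group SD of Atf3 was 1.69 on the log2 scale, where the median of all tested probes was 0.27, and only 3 probes had a larger one. These read Cxcl10, a chemokine induced by interferon (SD 1.91), the unnamed transcript BG664685 (1.73) and Cyr61, a matrix protein encoded by an immediate early gene (1.70). The other 9 CREB and ATF probes had SDs between 0.12 (Atf4) and 0.35 (Crem probe 1).

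**Figure D3:**
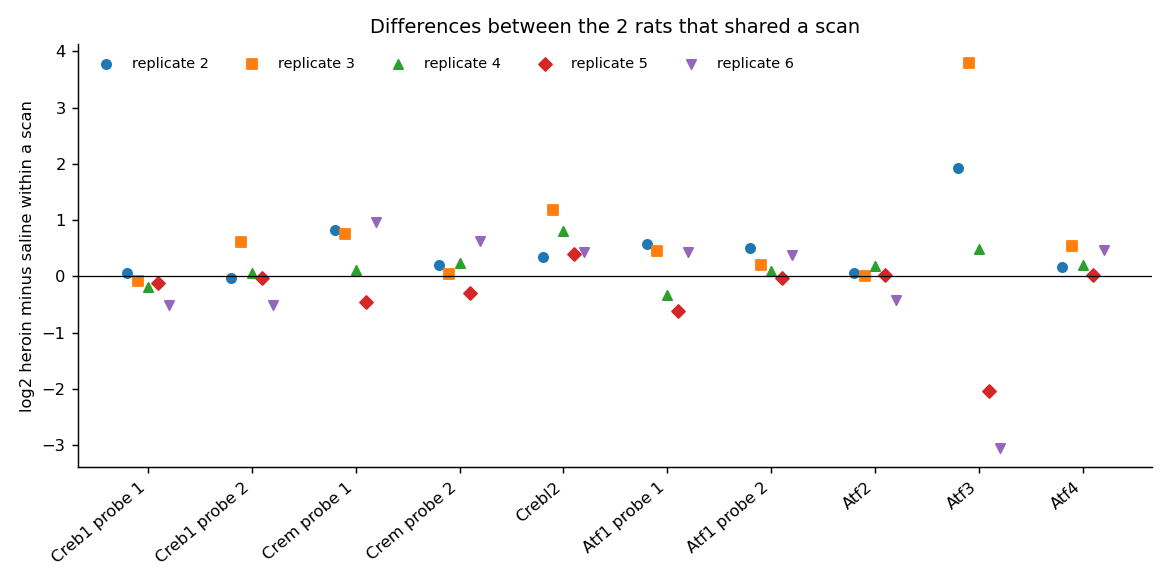
Log2 difference between the heroin rat and the saline rat that shared a scan (vertical axis), for each CREB and ATF probe and each of the 5 same-numbered pairs (symbols). Crebl2 and Atf4 lie above 0 in all 5 pairs, whereas Atf3 runs from −3.05 to 3.79.

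The 3 named genes nearest to Atf3 in pattern over the 11 arrays were a set chosen after the values were seen and given as a description. They were Ifit2, Best5 and Ifit3, which are all known as genes induced by interferon, at root mean square differences of 0.76, 0.83 and 0.84 on the log2 scale, where Atf3 varied around its own mean by 1.53. In each of these genes and in Atf3, heroin rats 2, 3 and 4 were the 3 highest of the heroin group, heroin rats 5 and 6 were the lowest, and saline rat 3 was the lowest of the saline group. Ifit2, for example, read 10.2, 10.7 and 10.9 array medians in heroin rats 2, 3 and 4 but 1.72 and 1.94 in heroin rats 5 and 6. None of the 3 differed between groups by more than its spread, with log2 differences of 0.21 for Ifit2 (SE 0.56), 0.05 for Best5 (SE 0.47) and 0.03 for Ifit3 (SE 0.56). What these rats shared was not tested. The list was cut at 3 genes, and the next in pattern, Mrpl43 and Verge, lay close behind at root mean square differences of 0.91 and 0.92.

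**Figure D4:**
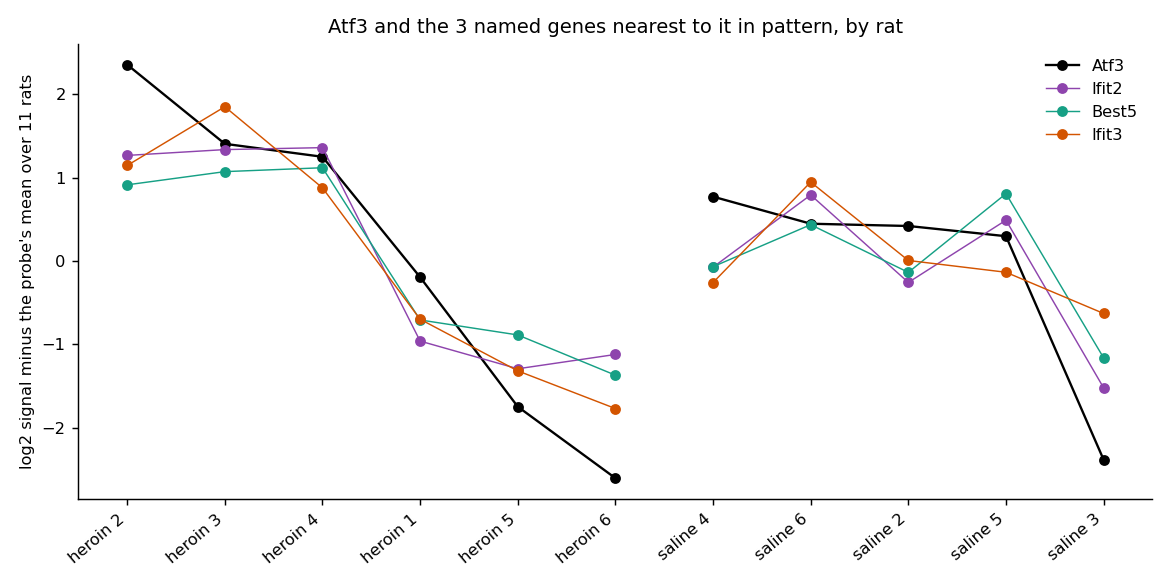
Log2 signal of Atf3, Ifit2, Best5 and Ifit3 in each rat, minus the mean of that probe over all 11 rats (vertical axis), with rats ordered within each group by Atf3. Heroin rats 2, 3 and 4 are high and heroin rats 5 and 6 and saline rat 3 are low for all 4 genes.

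Atf4, the effector of the integrated stress response that is controlled mainly at translation, had the smallest spread of the 10 probes and was the only one whose groups did not overlap. It ranged from 204 to 250.2 array medians in heroin rats with a median of 217, and read 181, 158, 190, 202 and 181 in saline rats 2 to 6. The lowest heroin rat lay just above the highest saline rat. Of all tested probes, 1.78% had groups that did not overlap. The means were 221 ± 17.1 (SD, n = 6) and 182 ± 16.2 (SD, n = 5).

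For Atf4 this gave a difference of 0.28 on the log2 scale, or 1.21-fold, with an SE of 0.11 (limma, p = 0.0299, adjusted p = 0.263), and the exact permutation test gave p = 0.00216, the smallest that 462 divisions allow. It did not reach 1.4-fold. Only 0.09 of the difference lay above the median change of all probes, and after quantile normalization the groups overlapped, with a difference of 0.05 (exact permutation test, p = 0.452). The heroin rat was higher in 5 of 5 scans (3 of 5 after quantile normalization), and with the scan as a block the limma adjusted p was 0.460.

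The genes that act with these factors were read from a list of 57 genes on the array, of which 53 genes with 62 probes were tested. Of these probes, 7 were higher in heroin rats past both thresholds and none were lower, while after quantile normalization 2 were called, both higher. At the 75th percentile and at the 50th percentile of the detected probes 3 were called, of which 1 probe for Bdnf and 1 for Pcsk1 were higher and Slc7a11, a cystine transporter among the ATF4 targets, was lower (−0.66 and −0.63). In these scalings 779 and 675 of all 25555 tested probes were called, and only 33 and 42 of them were higher in heroin rats. The median change of the list was 0.23, against 0.18 for all tested probes, and 0.06 against 0.01 after quantile normalization. Of the 7 calls under the 50th percentile scaling of all probes, all but 1 came from the target genes of CREB.

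CREB target genes, 18 genes with 20 probes, held 6 of the 7 calls, where 2.72% of all tested probes were called, and their median change was 0.47, or 0.29 above that of all probes (0.24 above after quantile normalization). This list was chosen with earlier results of these data known, and 2 of its 6 calls were probes of Bdnf. The shares are therefore a description and not a test of CREB targets. With the scan as a block 9 of the 20 probes passed both thresholds, where 3.15% of all probes did, and after quantile normalization 2 did, 1 for Bdnf and 1 for Pcsk1, where 1.79% of all probes did. Bdnf, a neurotrophin whose promoter is a well-studied target of CREB, read 7.16 ± 1.01 array medians in heroin rats (SD, n = 6) and 3.95 ± 1.18 in saline rats (SD, n = 5) with its first probe, a log2 difference of 0.90 with an SE of 0.19 (limma p = 3.15e-04, adjusted p = 0.263, exact permutation test p = 0.00216). The second Bdnf probe differed by 0.66. Egr1, an immediate early zinc finger factor, read 148 ± 18.7 and 94.4 ± 18.4 array medians, a difference of 0.66 (0.41 after quantile normalization). For the first Bdnf probe and for Egr1 the groups did not overlap.

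Scg2, a granin of dense core vesicles, read 12.9 ± 2.17 array medians in heroin rats and 8.78 ± 1.79 in saline rats, a difference of 0.56 (0.33 after quantile normalization). Pcsk1, which cleaves prohormones, read 1.84 ± 0.38 and 1.12 ± 0.41, a difference of 0.76 with one probe, and its other probe gave 0.34 without passing the thresholds. The remaining call among the targets was Arc, a synaptic immediate early gene, with a difference of 0.70 (0.45 after quantile normalization). Vgf, a neuropeptide precursor and the target with the brightest tested probe, had a difference of 0.33 and was not called. Bdnf, Egr1 and Scg2 were on the list of changed genes drawn from these arrays by the study, so their calls are not independent evidence. The study also reported an increase of Bdnf by RT-qPCR, smaller than the array changes given here. For that it used RNA of the samples that went onto the arrays. For Egr1 it referred to a change found in its earlier report.

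The full CRE was present in the RefSeq promoters of Scg2, Dusp1, Sst, Vgf and Ppargc1a, which were 5 of the 14 tested targets with a promoter in the table. Of these 5, Scg2 was called, and with the scan as a block Dusp1, a phosphatase of MAP kinases, was called too (0.66). The promoters of the other 9 held no full match in these windows. The full CRE was present in 26.3% of the windows of the 14 targets, against 1.83% of all windows. The shorter TGACG or CGTCA was present in 11 of the 14 genes and in 57.9% of their windows, against 21.2% of all windows. These shares were not tested.

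The kinases upstream gave 1 call in 11 tested probes, for Snf1lk, a salt-inducible kinase that acts on the CRTC coactivators of CREB and is itself induced by cAMP. It read 23.1 ± 4.95 array medians in heroin rats and 15.2 ± 5.02 in saline rats, a difference of 0.63 (exact permutation test, p = 0.0303), and 0.39 after quantile normalization. The brightest tested probe among the kinases was for Rps6ka1, a ribosomal S6 kinase, with a difference of 0.19. The median of the kinase probes was 0.19 (−0.01 after quantile normalization).

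The remaining groups gave no call under the 50th percentile scaling, quantile normalization or the scan block. Coactivators of CREB had a median of 0.18 over 6 probes, with 0.35 for the brighter probe of the acetyltransferase gene Ep300 (0.11 after quantile normalization) and −0.037 for its other probe. Other basic leucine zipper relatives had 0.18 over 7 probes, with 0.18 for Atf5. The largest change among them was that of Creb3l3, which was lower in heroin rats (−0.54, and −0.59 after quantile normalization) without passing the p threshold. The kinases and phosphatase subunit that set the level of ATF4 through the initiation factor eIF2 had 0.20 over 4 probes, with 0.22 for Eif2ak1. Targets of ATF4 and ATF3 had 0.22 over 14 probes, with 0.17 for Phgdh, an enzyme of serine synthesis. The median of the ATF4 and ATF3 targets lay 0.03 above that of all tested probes, and −0.01 from it after quantile normalization.

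**Figure D5:**
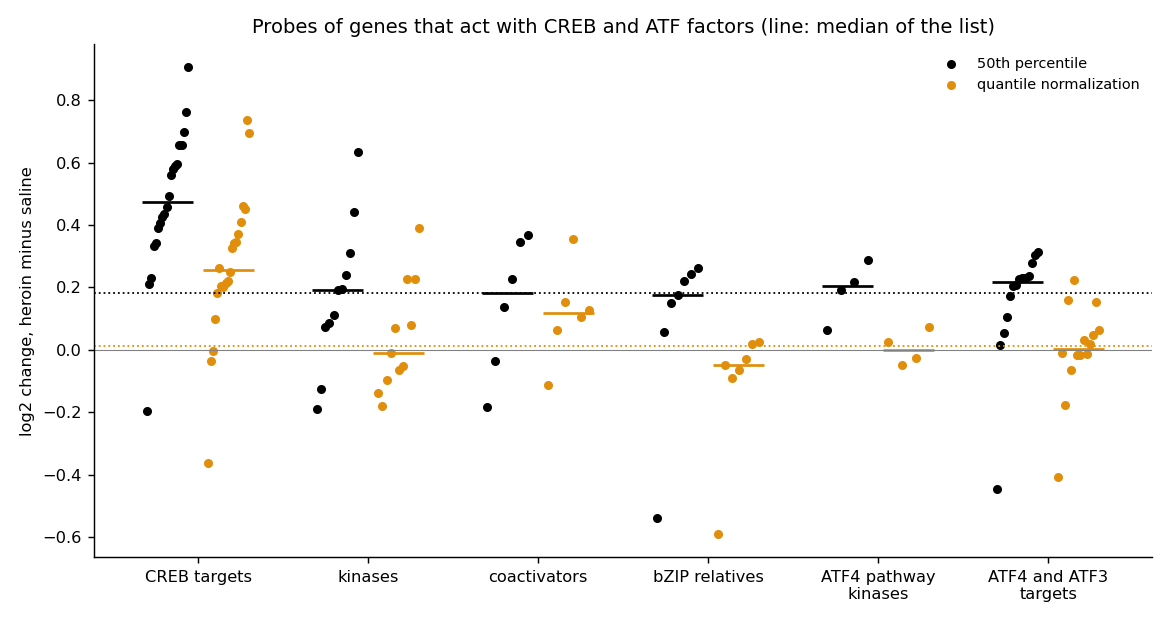
Log2 change, heroin minus saline, of each tested probe of the genes that act with CREB and ATF factors, by group of genes, after scaling to the 50th percentile (black) and after quantile normalization (orange). Short lines are the medians of each group and dotted lines the medians of all tested probes (0.18 and 0.01); the medians of the CREB target genes, 0.47 and 0.26, lie above both dotted lines, while single targets such as Ppargc1a (−0.20 and −0.36) lie below.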

How the data were processed

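The authors amplified total RNA of each rat into Cy3-labelled cRNA, hybridised it to 1 Agilent 1-colour array and extracted spots with Feature Extraction 9.5.1.1, which subtracts background; the deposited scanner files hold these intensities for 45018 spots. A deposited table of relative values, a ratio of each probe to its array's median, served as an alternative. Control spots and spots marked non-uniform or outlying were dropped. Intensities were floored at 5, taken to log2, averaged over the spots of a probe and divided by the 50th percentile of each array, following the study's methods. Of 41012 probes, 25587 were well above background on all 11 arrays, and 25555 with usable spots on at least 2 arrays per group were tested two-sided by limma 3.58.1 (R 4.3.3), and p-values were adjusted by Benjamini-Hochberg across these probes. A call needed an unadjusted p under 0.02 and 1.4-fold. The script was tested on simulated data. Single probes were also compared with an exact permutation test over 462 divisions, two-sided.

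All probes of the 7 genes are named. Further genes named are the 3 nearest in pattern to a called member, the 6 called pathway probes with the smallest p, and the gene with the brightest tested probe of each pathway group. Arc, Creb3l3, Dusp1, Ppargc1a, Slc7a11 and the genes beside Atf3 were named after their values were seen. The members and lists were chosen with earlier results of these data known. Probe gene names and rn3 positions came from the array files, and promoters from RefSeq tables of GRCr8. Each array measured a different rat, so p-values reflect the spread between rats, and the number of arrays limits the precision. Same-numbered rats shared a scan, but their deviations from the group means correlated at 0.38, −0.13, 0.35, 0.02 and −0.24 for numbers 2 to 6, so the numbers were not used as a block in the main comparison. Scaling, background correction, filters, tests, scan and single rats were varied as alternatives.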

Additional observations from a re-analysis of the deposited data

Results flagged for a closer look

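Of the 20 groups of values of the 10 probes, 2 held a sample set apart from the others by Dixon's ratio, the gap to the nearest value divided by the range of the group, which chance gives in about 1 group in 20. In the saline rats, Atf3 in replicate 3 was the lowest with a ratio of 0.85, and in the heroin rats, Creb1 probe 2 in replicate 3 was the highest with a ratio of 0.653. Without saline replicate 3 the log2 change of Atf3 was −0.41 in place of 0.17, and without heroin replicate 3 that of Creb1 probe 2 was −0.10 in place of −0.01.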

How the results depend on the processing

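Crebl2 was called in 23 of 26 alternatives, with log2 changes of 0.44 to 0.87, and lost its call on the fold threshold at 0.44 (75th percentile, where p also missed), 0.46 (quantile) and 0.47 (50th percentile of detected probes), which left 0 members called. Over all probes 694 calls became 457 after quantile normalization, 126 with normexp, 308 with the methods' t-test, 2488 with array weights, 1560 with no detection filter and 1067 with detection in 1 group. The 7 pathway calls became 3 (75th percentile or detected probes, with 2 of 3 higher, and the methods' t-test), 2 (quantile) and 17 (array weights). Leaving out 1 rat gave 1 to 2 members called, 343 (without saline replicate 2) to 2352 (without saline replicate 5) calls over all probes, 393 without saline replicate 3, and 5 to 12 pathway calls, with 11 without saline replicate 2. Directions turned for Creb1 probe 2 (0.11 quantile, 0.028 normexp, −0.10 to 0.086 leaving out 1 rat), Crem probe 2 (−0.058 at the 75th percentile, −0.021 quantile, −0.030 detected probes), Atf1 probe 1 (−0.12 and −0.089 at the 75th percentile and for detected probes), Atf2 (0.022 with array weights, −0.088 to 0.020 leaving out 1 rat) and Atf3 (−0.051 at the 75th percentile, −0.011 quantile, −0.024 detected probes, −0.41 to 0.70 leaving out 1 rat). The cause was not tested. With the replicate number as a block, heroin replicate 1 drops out, 805 of 25541 probes, 10 pathway probes and Crebl2 (0.63) were called, and Creb1 probe 2 turned to 0.022. With array weights 8425 of 25555 probes had an adjusted p under 0.05, without heroin replicate 6 there was 1, and under all other alternatives 0. Among the 8425 were Crebl2 (limma adjusted p = 0.0185), Crem probe 1 (0.0248) and Atf4 (0.0265), of which only Crebl2 passed both thresholds.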
